A study of Homo sapiens with 8 samples.

Results

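The 43 collagen genes of the human genome were examined for binding of TAZ, a transcriptional co-activator of the Hippo pathway, in mammary epithelial cells. They are the protein-coding genes of GENCODE version 44 whose symbol has the form of a collagen chain (COL, a type number, A and a chain number), out of 20033 protein-coding genes, and COL17A1, a transmembrane collagen of hemidesmosomes, was left out by the rule. The study used MCF10A, a non-transformed human mammary epithelial line, transduced with a tet-inducible TAZ-4SA, a constitutively active form of TAZ. Doxycycline (Dox) was given at 0.05 µg/ml over 24, 48 or 72 h, and the remaining cells received none. TAZ-4SA is present as a transgene in all 4 conditions, the cells without Dox included, on top of the TAZ gene of the line itself. Chromatin immunoprecipitation with sequencing (ChIP-seq) was done on each condition with an antibody to TAZ and with IgG, 1 library each, 8 libraries in all, and 1 peak list per condition was available. The antibody is to TAZ and not to a tag, so it is not known to separate the transgene product from the TAZ of the line.

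Collagens are proteins of 3 chains wound into a triple helix, and they make up most of the fibrous part of the extracellular matrix. Fibrillar collagens form the banded fibrils of connective tissue, FACIT collagens sit on the surface of those fibrils, and type IV collagen forms the sheet-like network of the basement membrane on which mammary epithelium rests. Other classes build hexagonal networks, beaded filaments and anchoring fibrils, span the plasma membrane, or carry side chains of glycosaminoglycan (the multiplexins). TAZ has no DNA-binding domain and reaches DNA mainly through the TEAD factors, often close to sites of AP-1, a dimer of FOS and JUN proteins.

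ChIP fragments pile up above the local background at a peak, and the highest point is its summit. Fold enrichment is the pileup at the summit over the local background, each with 1 added. The numbers of peaks were 2431 in the list without Dox and 2469, 11767 and 38667 in the lists of 24, 48 and 72 h. Their genome-wide background coverage was 1.49, 1.42, 2.84 and 2.01 fragments in the same order, and at that background the smallest pileup called was 9, 9, 12 and 9 fragments. A gene without a peak is therefore described as not called, which is not the same as not bound. With 1 TAZ library per condition there was no replicate check on any value, and no test between conditions was made. The 95% intervals given below are exact Poisson intervals of the pileup or exact binomial intervals of a share, and they cover counting error only. A peak list holds no expression values, so neither the identity of the cells nor the level of any collagen RNA could be checked with it, and the assignment of a peak to a gene says where it lies and nothing about regulation.

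Sequences of 201 bases around the summits of the 72 h list are shown first, since the strongest collagen sites differed in what they hold. All are from the forward strand of hg38. Capitals mark a TEAD consensus (ACATTCC or GCATTCC, reading GGAATGT or GGAATGC where it lies on the other strand) or an AP-1 consensus (TGACTCA or TGAGTCA). The strongest promoter peaks of collagen genes lay in COL4A3 (chr2:227310811-227311011), downstream of the canonical start of COL16A1 (chr1:31701192-31701392) and at the start of COL12A1 (chr6:75206075-75206275). The COL4A3 and COL16A1 summits held an AP-1 consensus and no TEAD consensus, and the COL12A1 summit held a TEAD consensus 39 bases from the summit.
COL4A3 internal promoter: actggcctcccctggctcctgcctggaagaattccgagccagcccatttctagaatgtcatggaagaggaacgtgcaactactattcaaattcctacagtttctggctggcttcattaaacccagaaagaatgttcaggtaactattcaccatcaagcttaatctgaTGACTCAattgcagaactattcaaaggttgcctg
COL16A1 promoter downstream of the canonical start: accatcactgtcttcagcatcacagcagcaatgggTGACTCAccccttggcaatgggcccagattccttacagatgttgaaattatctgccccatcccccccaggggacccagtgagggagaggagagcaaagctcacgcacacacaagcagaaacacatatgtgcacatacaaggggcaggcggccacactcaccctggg
COL12A1 promoter: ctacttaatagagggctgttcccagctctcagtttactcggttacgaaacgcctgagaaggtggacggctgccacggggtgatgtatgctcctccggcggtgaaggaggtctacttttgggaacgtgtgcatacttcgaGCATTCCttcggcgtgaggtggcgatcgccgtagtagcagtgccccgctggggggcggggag

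The strongest peaks elsewhere in the collagen windows lay in an exon of COL4A2 (chr13:110485578-110485778), at the start of the neighbouring gene TINAGL1 inside the COL16A1 window (chr1:31575932-31576132), and in an intron of COL26A1 (chr7:101402145-101402345). A TEAD consensus was present at the COL4A2 and the COL26A1 summit. None of the searched letters was found at the TINAGL1 summit, which says only that they are not in that window.
COL4A2 exon 34: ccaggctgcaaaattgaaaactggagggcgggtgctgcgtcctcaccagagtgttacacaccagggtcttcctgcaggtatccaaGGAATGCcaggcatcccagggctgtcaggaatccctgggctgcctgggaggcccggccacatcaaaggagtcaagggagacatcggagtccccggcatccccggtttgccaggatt
TINAGL1 promoter: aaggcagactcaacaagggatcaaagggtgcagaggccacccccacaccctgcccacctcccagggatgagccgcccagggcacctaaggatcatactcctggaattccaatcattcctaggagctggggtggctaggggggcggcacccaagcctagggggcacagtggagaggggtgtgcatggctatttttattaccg
COL26A1 intron: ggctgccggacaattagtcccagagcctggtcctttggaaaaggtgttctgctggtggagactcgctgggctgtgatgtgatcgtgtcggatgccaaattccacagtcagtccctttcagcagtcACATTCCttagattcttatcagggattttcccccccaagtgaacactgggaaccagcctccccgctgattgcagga

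A further 4 sites were chosen for display after their values were seen. A second COL4A2 site (chr13:110448372-110448572) held 3 TEAD consensus sequences within 33 bases of the summit, and an internal start of COL16A1 (chr1:31689893-31690093) held a TEAD and an AP-1 consensus on the 2 sides of its summit. The intronic site of COL8A1 (chr3:99674221-99674421) had its TEAD consensus across the summit itself. The site upstream of COL9A1, in the windows of COL9A1 and COL19A1 (chr6:70312242-70312442), was the only collagen site with a fold enrichment lower at 72 h than at 48 h beyond its intervals, and next to a TEAD consensus it held 3 copies of a RUNX consensus (TGTGGTT, reading AACCACA on the other strand), which are left in lower case.
COL4A2 second site: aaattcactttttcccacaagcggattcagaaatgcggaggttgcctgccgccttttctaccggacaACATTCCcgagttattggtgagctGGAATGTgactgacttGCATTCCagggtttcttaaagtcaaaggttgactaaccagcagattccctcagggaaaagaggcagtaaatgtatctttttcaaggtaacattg
COL16A1 internal promoter: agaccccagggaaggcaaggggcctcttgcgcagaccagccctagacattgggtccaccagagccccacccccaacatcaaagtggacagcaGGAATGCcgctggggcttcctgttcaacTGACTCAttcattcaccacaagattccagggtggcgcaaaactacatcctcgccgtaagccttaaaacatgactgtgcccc
COL8A1 intron: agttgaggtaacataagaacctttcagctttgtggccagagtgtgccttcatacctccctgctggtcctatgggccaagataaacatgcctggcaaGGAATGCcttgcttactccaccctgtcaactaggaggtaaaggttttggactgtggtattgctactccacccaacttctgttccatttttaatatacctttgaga
COL9A1 upstream site: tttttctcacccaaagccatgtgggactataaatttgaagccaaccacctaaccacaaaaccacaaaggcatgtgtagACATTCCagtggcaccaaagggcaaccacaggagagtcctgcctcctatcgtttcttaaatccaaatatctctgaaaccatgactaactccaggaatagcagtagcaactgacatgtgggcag

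Promoter peaks, with a summit within 3 kb of any annotated transcription start site (TSS) of the gene, were few at collagen genes before 72 h. Without Dox 1 of 43 collagen genes had such a peak (2.33%), against 9.4% of all protein-coding genes. At 24 h there were 2 (4.65%), against 2.55% of all protein-coding genes, and at 48 h there were 5 (11.6%), against 9.09%. At 72 h the number was 18 (41.9%), against 58.4% of all protein-coding genes. At 24 and 48 h the collagen share was thus close to the background of the list, and without Dox and at 72 h it was the smaller of the 2 shares; these are descriptions of 1 list each.

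The call depended on which start was used. Within 3 kb of the canonical TSS alone, collagen genes with a peak numbered 1, 1, 2 and 11 from no Dox to 72 h, and the shares of all protein-coding genes were 8.13%, 1.39%, 4.71% and 53.3%. Collagen genes are long, with a median length of 150 kb against 27.5 kb for all protein-coding genes, and they have a median of 7 annotated starts against 5. The 18 collagen genes with a promoter peak at 72 h had a median of 12 starts, and the 25 without had a median of 6. The part of the number of starts in the promoter calls was not tested. The promoters themselves had a median GC content of 63.4% and an observed-to-expected CpG ratio of 0.639 at collagen genes, against 61.3% and 0.725 at all protein-coding genes.

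**Figure D1:**
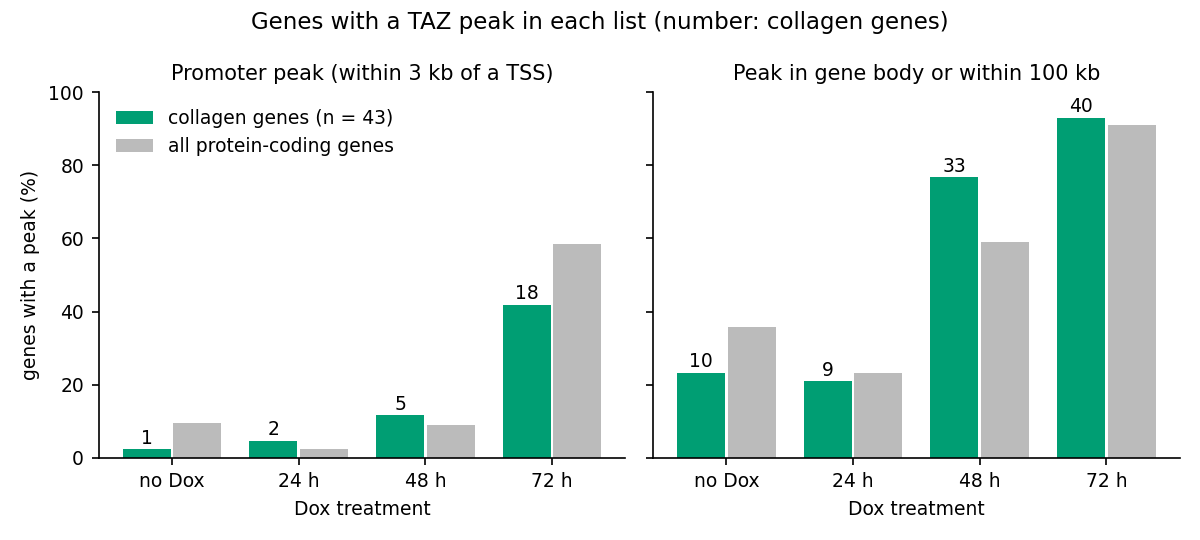
Percent of genes with a TAZ peak (y axis) in each list (x axis), at promoters (left) and in the gene body or within 100 kb (right), for 43 collagen genes (green, with the number of genes) and all 20033 protein-coding genes (grey). Promoter peaks were found at 1, 2, 5 and 18 collagen genes and window peaks at 10, 9, 33 and 40, from no Dox to 72 h.

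COL12A1 was the only collagen gene with a promoter peak in all 4 lists. It encodes type XII collagen, a FACIT collagen of dense connective tissue. Its fold enrichment was 6.27 without Dox (3.80 to 9.82), then 4.99 (3.10 to 7.65) after 24 h, 5.41 (3.98 to 7.20) after 48 h and 18.99 (15.96 to 22.4) after 72 h. The intervals without Dox, at 24 h and at 48 h overlapped, and the interval at 72 h lay above them. The summits lay 36, 144, 90 and 122 bp upstream of the canonical start in the same order. The summit without Dox had no TEAD consensus within 100 bp, while the summits at 24, 48 and 72 h did. That consensus, at chr6:75206214-75206220, also lies inside the peak called without Dox (chr6:75205344-75206293), only farther than 100 bp from its summit. The difference is therefore in the place of the summit, which without Dox rests on 17 fragments.

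COL16A1, another FACIT collagen, found in the matrix of many tissues, was the only other collagen gene with a promoter peak at 24 h. The peak lay at an internal start, between 13968 and 14032 bp from the canonical start in the 3 lists with Dox, with no start of a coding transcript within 3 kb. Its fold enrichment there was 5.52 (3.59 to 8.17) after 24 h, 8.94 (6.68 to 11.7) after 48 h and 17.3 (14.3 to 20.8) after 72 h, and no peak was called without Dox. A second COL16A1 peak, 2725 bp downstream of the canonical start at 72 h, had a fold enrichment of 19.6 at 72 h (15.4 to 24.5), against 4.78 at 48 h (3.32 to 6.69). Another peak lay at a further internal start and was called at 72 h alone, at 11.7. COL16A1 thus had 3 promoter peaks at 72 h, as did COL4A3, and no collagen gene had more.

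COL4A3, COL9A2 and COL11A1 had promoter peaks at 48 and 72 h. COL4A3 encodes a chain of the type IV network of the kidney glomerulus, inner ear and eye. Its strongest peak had a fold enrichment of 19.8 at 72 h (16.1 to 24.2), against 8.17 at 48 h (6.13 to 10.7), and it lay 146287 bp from the canonical start, near a downstream start of a transcript with no defined coding sequence. COL9A2, a chain of the cartilage FACIT type IX, had 10.5 at 72 h (7.86 to 13.8), against 4.51 at 48 h (2.77 to 6.98), 12110 bp from the canonical start. COL11A1, a chain of the minor fibrillar type XI of cartilage, had 6.06 at 72 h (3.94 to 8.97), against 4.68 at 48 h (2.84 to 7.34), 228790 bp from the canonical start, at a transcript with a retained intron. The intervals were apart for COL4A3 and COL9A2 and overlapped for COL11A1. None of these 3 genes had its 48 h peak near a start of a coding transcript.

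The other 13 promoter genes were called at 72 h alone, with values below 10, and COL4A1, COL4A2 and COL4A4 are described with the other type IV genes. The strongest was COL5A3, a chain of the fibril-nucleating type V, at a fold enrichment of 9.77 (6.65 to 13.9), with 2 TEAD consensus sequences at the summit. COL15A1, a multiplexin of basement membrane zones, had 7.86 (5.10 to 11.6) at a start far from the canonical start. COL1A1, the α1 chain of type I collagen, the main fibrillar collagen of skin, tendon and bone, had 6.81 (4.77 to 9.43), 1439 bp from its canonical start. COL1A2, the other chain of type I collagen, had 4.94 (3.11 to 7.50), but 29177 bp from its canonical start, at a transcript with a retained intron. Neither type I gene had a promoter peak in an earlier list. COL21A1 (6.32), COL28A1 (4.83), COL9A3 (4.80), COL6A3 (4.33), COL8A1 (4.26) and COL7A1 (4.12) followed. The COL21A1, COL28A1 and COL6A3 peaks lay 156192, 96841 and 58921 bp from the canonical start. Those of COL21A1 and COL6A3 had no start of a coding transcript within 3 kb. COL7A1 encodes the anchoring fibril that ties the epidermal basement membrane to the dermis, and its peak had 14 fragments over a background of 2.64.

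Over the promoters that had a peak, the median of the strongest fold enrichment was 6.27 without Dox, where it is 1 gene, and 5.26, 5.41 and 6.45 after 24, 48 and 72 h. The medians of all protein-coding genes with a promoter peak were 6.02, 7.47, 6.28 and 7.20 in the same order. At 72 h the collagen values ran from 3.32 to 19.8, so COL4A3, COL16A1 and COL12A1 stood well above the collagen median and the other 15 genes had at most 10.5.

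**Figure D2:**
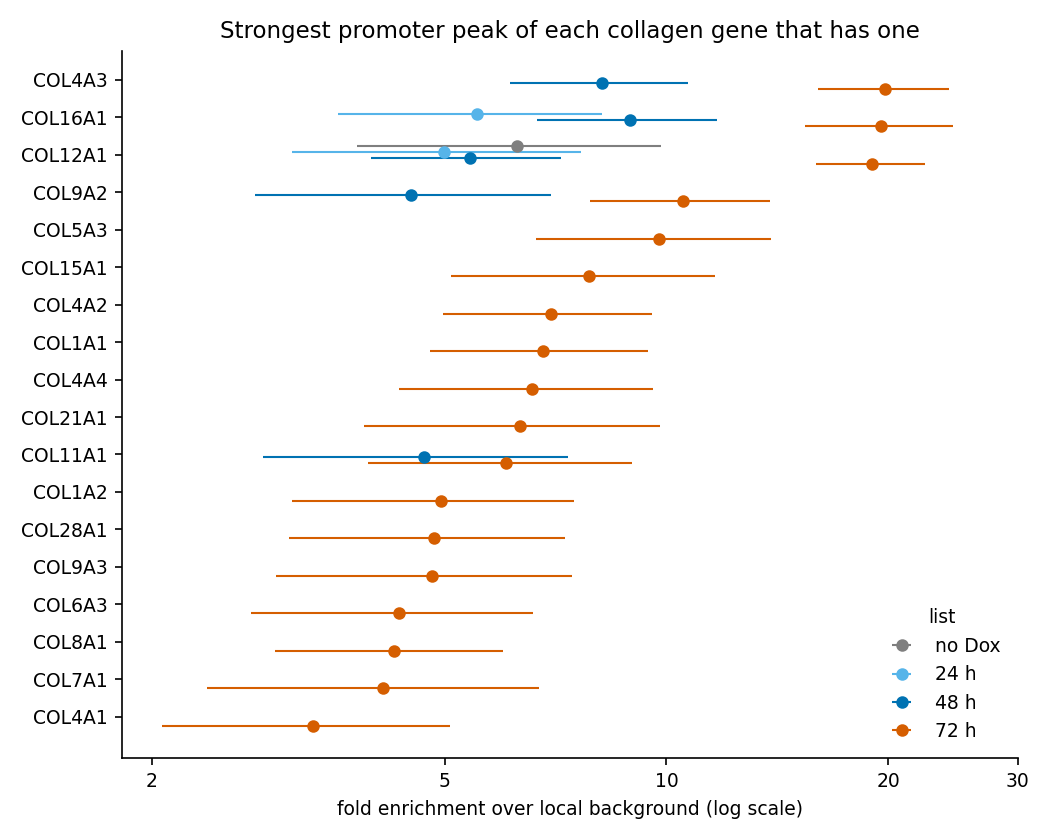
Fold enrichment over the local background (x axis, log scale) of the strongest promoter peak of each of the 18 collagen genes that has one (y axis), in each list where it was called. Bars are 95% Poisson intervals; COL4A3, COL16A1 and COL12A1 reach 19.8, 19.6 and 18.99 at 72 h and COL4A1 is lowest at 3.32.

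The other 25 collagen genes had no promoter peak in any list. Among them were COL3A1, the type III chain of skin and vessel walls, COL5A1 and COL5A2, the main type V chains, COL6A1 and COL6A2 of the beaded filaments, COL18A1, the source of endostatin, and the 3 transmembrane members COL13A1, COL23A1 and COL25A1. COL11A2 was not called in any list, and 100% of the 50-base words of its promoter and 99.7% of those of its window also occur on alternate sequences of the reference. COL6A2 followed at 34.1% of its window. The part of those copies in the lack of calls was not tested.

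The view widened when the whole gene and 100 kb to each side were taken as its window. Collagen genes with at least 1 peak there numbered 10 without Dox (23.3%), against 35.8% of all protein-coding genes, and 9 at 24 h (20.9%), against 23.2%. At 48 h the number was 33 (76.7%), against 59%, and at 72 h it was 40 (93.0%), against 90.9% of all protein-coding genes. COL6A1, COL11A2 and COL22A1 had no peak in any list. COL1A1, COL4A2, COL8A2 and COL12A1 had a window peak in all 4 lists, but of these only COL12A1 had it at the collagen gene itself without Dox. Because collagen genes are long, these windows cover 13.98 Mb, and a density serves better than a count of genes.

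The windows of all collagen genes together held 10 peaks without Dox and 12, 67 and 251 peaks after 24, 48 and 72 h. Per Mb this was 0.715 (0.343 to 1.32), 0.858 (0.443 to 1.499), 4.79 (3.71 to 6.08) and 17.95 (15.8 to 20.3). The windows of all protein-coding genes held 1.104, 0.977, 4.73 and 16.4 peaks per Mb in the same order, so in each list the collagen interval included the value of all genes. Within the gene bodies alone the collagen density without Dox was 0.301 per Mb (0.0365 to 1.089), against 1.123 per Mb in the bodies of all protein-coding genes. At 24 h it was 0.754 (0.245 to 1.76), against 0.926, at 48 h 4.07 (2.68 to 5.92), against 4.62, and at 72 h 11.9 (9.43 to 14.8), against 16.5. The collagen intervals included the value of all bodies at 24 and 48 h and lay below it without Dox and at 72 h. Gene length was not matched in these comparisons, and neighbouring peaks are not independent counts, which the intervals do not cover.

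Without Dox most of the 10 window peaks lay nearest to genes other than collagens. Promoters of other protein-coding genes held 7 of them (70%, 34.8 to 93.3%), the strongest at MRPL13 and ZMPSTE24. With promoters of any gene counted, 2 of the 10 were not at a promoter, against 692 of all 2420 peaks of the list on the main chromosomes. A high share at promoters was thus a trait of the whole list and not of the collagen windows. The MRPL13 promoter, in the COL14A1 window, had a fold enrichment of 7.02 at 72 h, against 29.8 without Dox, and the ZMPSTE24 promoter, in the COL9A2 window, had 16.7 at 72 h, against 28.6 without Dox. Only 3 of the 10 had a collagen start as their nearest protein-coding start: the COL12A1 promoter, an intron of COL27A1 (4.82) and a site 48392 bp from COL13A1 (4.82). No summit of the 10 held a TEAD consensus (0%, up to 30.8%), against 16.4% of all peaks of the list.

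At 24 h, 7 of the 12 peaks were nearest to a collagen start and they belonged to 4 genes. COL8A1, a short-chain collagen of hexagonal networks made by vessel walls and corneal endothelium, had 3 of them. COL4A2 had 2, and COL12A1 and COL16A1 had their promoter peaks. Of the 12 peaks, 11 overlapped a peak at 48 h (91.7%) and all 12 overlapped a peak at 72 h. For all peaks of the 24 h list these shares were 92.5% and 97.3%.

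The basement membrane collagens had the strongest site of all. COL4A1 and COL4A2, the 2 chains of the type IV molecule found in nearly all basement membranes, start 127 bp apart and run in opposite directions. Their shared promoter had the weakest promoter peak of the set, called at 72 h alone with a fold enrichment of 3.32 (2.06 to 5.09) from 19 fragments. Inside COL4A2, 178 kb downstream of that start, the peak in exon 34 of 48 (exon at chr13:110485655-110485836) had 80.9 at 72 h (73.7 to 88.6), against 20.0 at 48 h (16.4 to 24.1), and was not called earlier. Its TEAD consensus lies within the exon.

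The second COL4A2 site, 141 kb from the start in an exon of a non-canonical transcript, came earlier. It had a fold enrichment of 12.9 (9.12 to 17.9) after 24 h, 24.8 (20.4 to 29.9) after 48 h and 29.2 (25.3 to 33.5) after 72 h. At 24 h it was the strongest peak in any collagen window. An intronic site 40.4 kb from the start had 4.37, 5.93 and 20.05 (16.5 to 24.2) after 24, 48 and 72 h. Over both genes and their flanks the number of peaks was 1, 2, 5 and 23 from no Dox to 72 h. The 1 peak without Dox was at the promoter of RAB20, a neighbouring gene.

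**Figure D3:**
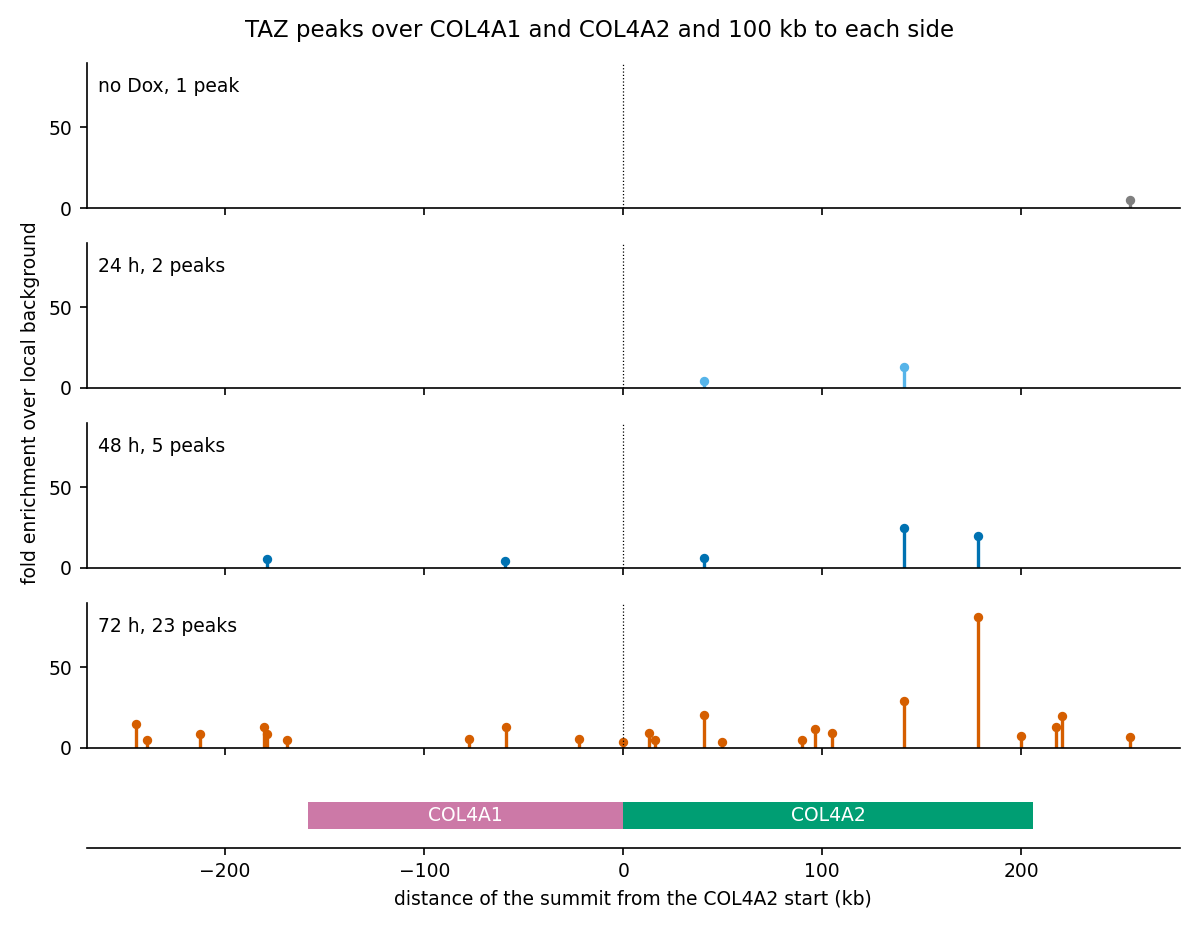
Fold enrichment (y axis, linear) of each TAZ peak over COL4A1, COL4A2 and 100 kb to each side, by distance of the summit from the COL4A2 start in kb (x axis), with 1 row per list and the gene bodies below. The peak 178 kb into COL4A2 reaches 80.9 at 72 h, while the peak at the shared start has 3.32.

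The other type IV pairs shared this head-to-head layout, with canonical starts 419 bp apart for COL4A3 and COL4A4 and 1416 bp apart for COL4A5 and COL4A6. The COL4A3 and COL4A4 start had a peak of 6.57 (4.34 to 9.58) at 72 h alone, and the COL4A5 and COL4A6 start was not called in any list. A further promoter peak of COL4A2, 199966 bp from its canonical start, had 6.98 (4.97 to 9.55) at 72 h alone. An intronic site of COL4A4 had 14.5 at 72 h, against 3.76 at 48 h. An intronic site of COL4A5, 24868 bp from its nearest start, had 15.6 at 72 h, against 7.90 at 48 h. All 6 type IV genes had a window peak at 48 h and at 72 h, where 59% and 90.9% of all protein-coding genes did. A promoter peak was called at 4 of the 6 at 72 h, where 58.4% did, so the counts at 72 h were near the background. The windows of each pair overlap and a shared peak counts for both genes, so these are not 6 separate calls. At 48 h COL4A1 and COL4A2 shared 2 peaks, COL4A3 and COL4A4 shared 1, and COL4A5 and COL4A6 shared 2. In place, 34 of the 44 peaks in the type IV windows at 72 h were nearest to a type IV gene.

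Among the 11 fibrillar genes, 4 had a promoter peak at 72 h, where 58.4% of all protein-coding genes did, and 10 had a window peak, where 90.9% did. COL5A1 had 9 window peaks at 72 h, and 7 of them were nearest to COL5A1 itself, the most of the class. Its strongest site, 32666 bp from a COL5A1 start and at the start of a non-coding gene, had 25.2 at 72 h (20.6 to 30.6), against 5.39 at 48 h (3.92 to 7.25). An intronic site had 20.96 at 72 h, against 6.27 at 48 h. COL5A2 had a site of 19.7 at 72 h (15.6 to 24.6), against 12.4 at 48 h (9.69 to 15.5), in the stretch it shares with the window of COL3A1. COL5A2 also had the only collagen window site called at 48 h alone, with a fold enrichment of 14.1 (10.6 to 18.3) from 53 fragments and 2 AP-1 consensus sequences at the summit.

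The type I genes had weaker sites. Of the 11 peaks in the COL1A1 window at 72 h, 4 were nearest to COL1A1, the strongest of them at 11.01 and 17491 bp from a start. The strongest peak of the window (18.99) lay near TMEM92. COL1A2 had 5 window peaks at 72 h, with values up to 6.83, and the peak in its exon 11 of 52 had 6.65 (4.14 to 10.2). COL2A1, the cartilage collagen, had 9 window peaks at 72 h, none of which was nearest to it, and 6 of them were nearest to VDR, the vitamin D receptor gene. The 2 peaks in the window of COL3A1 at 72 h were both nearest to COL5A2.

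The hexagonal network genes had a density of 27.7 peaks per Mb at 72 h (17.6 to 41.6), with 7 of their 23 peaks nearest to a gene of the class. The intronic COL8A1 site had a fold enrichment of 7.88 (5.01 to 11.9) after 24 h, 17.5 (13.9 to 21.6) after 48 h and 23.4 (19.7 to 27.6) after 72 h. A site 95158 bp away had 8.02, 8.46 and 22.7 at 24, 48 and 72 h, and a site 75148 bp away had 8.59, 11.5 and 16.4. None of the 3 was called without Dox. At the COL8A1 promoter the fold enrichment was 4.26 at 72 h alone, so the distal sites were both earlier and stronger. COL10A1, the collagen of hypertrophic cartilage, had 4 window peaks at 72 h, none nearest to it, the strongest at 27.5 near TSPYL4.

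COL7A1 had the densest window, 60.5 peaks per Mb at 72 h (33.1 to 102), with 14 peaks. Only its own promoter peak was nearest to it, and 12 of the others lay at promoters of neighbours. A dense window was thus not a sign of peaks at the collagen gene. The basement membrane genes had 24.2 peaks per Mb (17.6 to 32.5), the multiplexins 22.01, the fibrillar genes 16.9 (12.8 to 21.8), the FACIT genes 14.98 (11.2 to 19.6), the transmembrane genes 14.9 and the beaded filament genes 9.38 (4.68 to 16.8). The windows of all protein-coding genes had 16.4 per Mb, a value inside each of these intervals except those of COL7A1, the hexagonal network and the basement membrane genes.

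**Figure D4:**
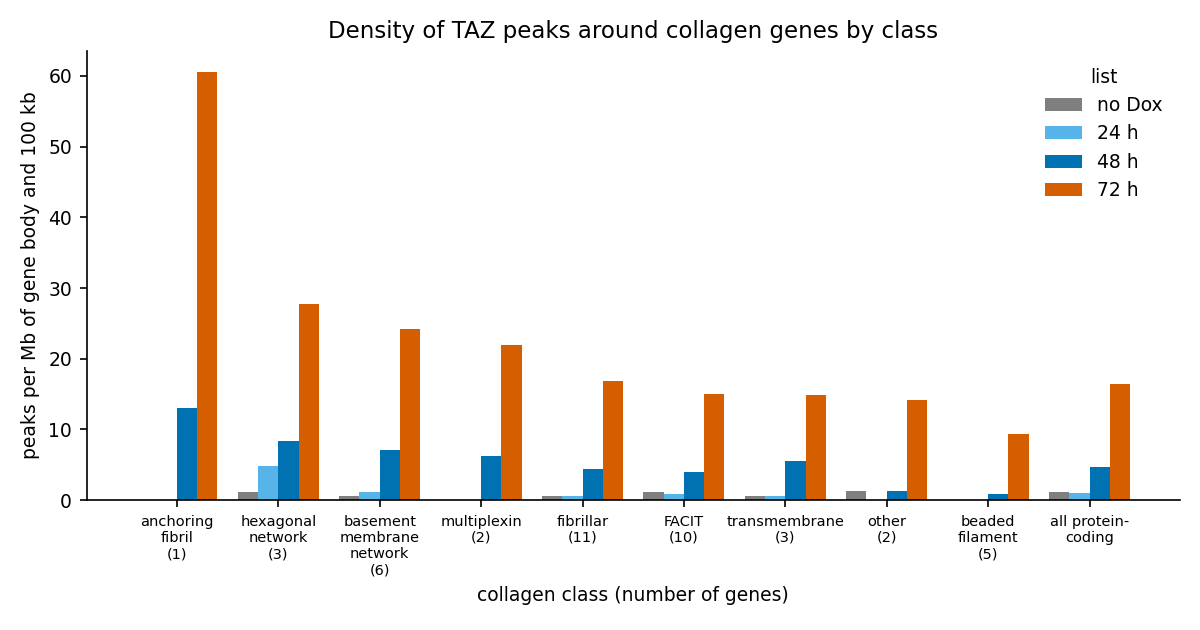
TAZ peaks per Mb of gene body and 100 kb to each side (y axis) by collagen class, with the number of genes, and for all protein-coding genes (x axis), in each list (colours). At 72 h the values run from 9.38 for the beaded filament class to 60.5 for COL7A1, against 16.4 for all protein-coding genes.

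The transmembrane class had no promoter peak in any list but strong distal sites. COL23A1, a gene of 352918 bp with a long window, had 18 window peaks at 72 h, the most of any collagen gene. Only 5 of them were nearest to COL23A1 and 6 lay in its body, while 13 of the 17 window peaks of COL4A2 were nearest to COL4A2. The strongest peak of the COL23A1 window, 45034 bp from a COL23A1 start and nearest to CLK4, had 6.81 (4.92 to 9.22) after 24 h, 14.5 (12.2 to 17.1) after 48 h and 31.0 (27.2 to 35.2) after 72 h. An intronic site had 23.9 at 72 h (20.3 to 27.97), against 6.77 at 48 h (4.86 to 9.19). COL25A1, a collagen first found in brain amyloid, had an intronic site of 21.3 at 72 h, against 11.4 at 48 h, and COL13A1 an intronic site of 16.5 at 72 h alone.

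COL18A1 and COL15A1, the multiplexins, differed in place. COL18A1 had no promoter peak, and its strongest own site, 39191 bp away and with 3 TEAD consensus sequences, had 21.9 at 72 h (17.9 to 26.4), against 5.29 at 48 h (3.88 to 7.06). COL15A1 had no window peak before 72 h, and then an intronic peak of 11.7 beside its promoter peak. COL26A1, which belongs to none of the main classes, had an intronic site of 35.1 at 72 h (30.02 to 40.8), against 10.9 at 48 h (8.67 to 13.5). Of the beaded filament genes COL6A3 alone had a peak before 72 h in its window, near MLPH, with 23.6 at 72 h, against 4.39 at 48 h, and its strongest own site had 16.7 at 72 h alone.

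**Figure D5:**
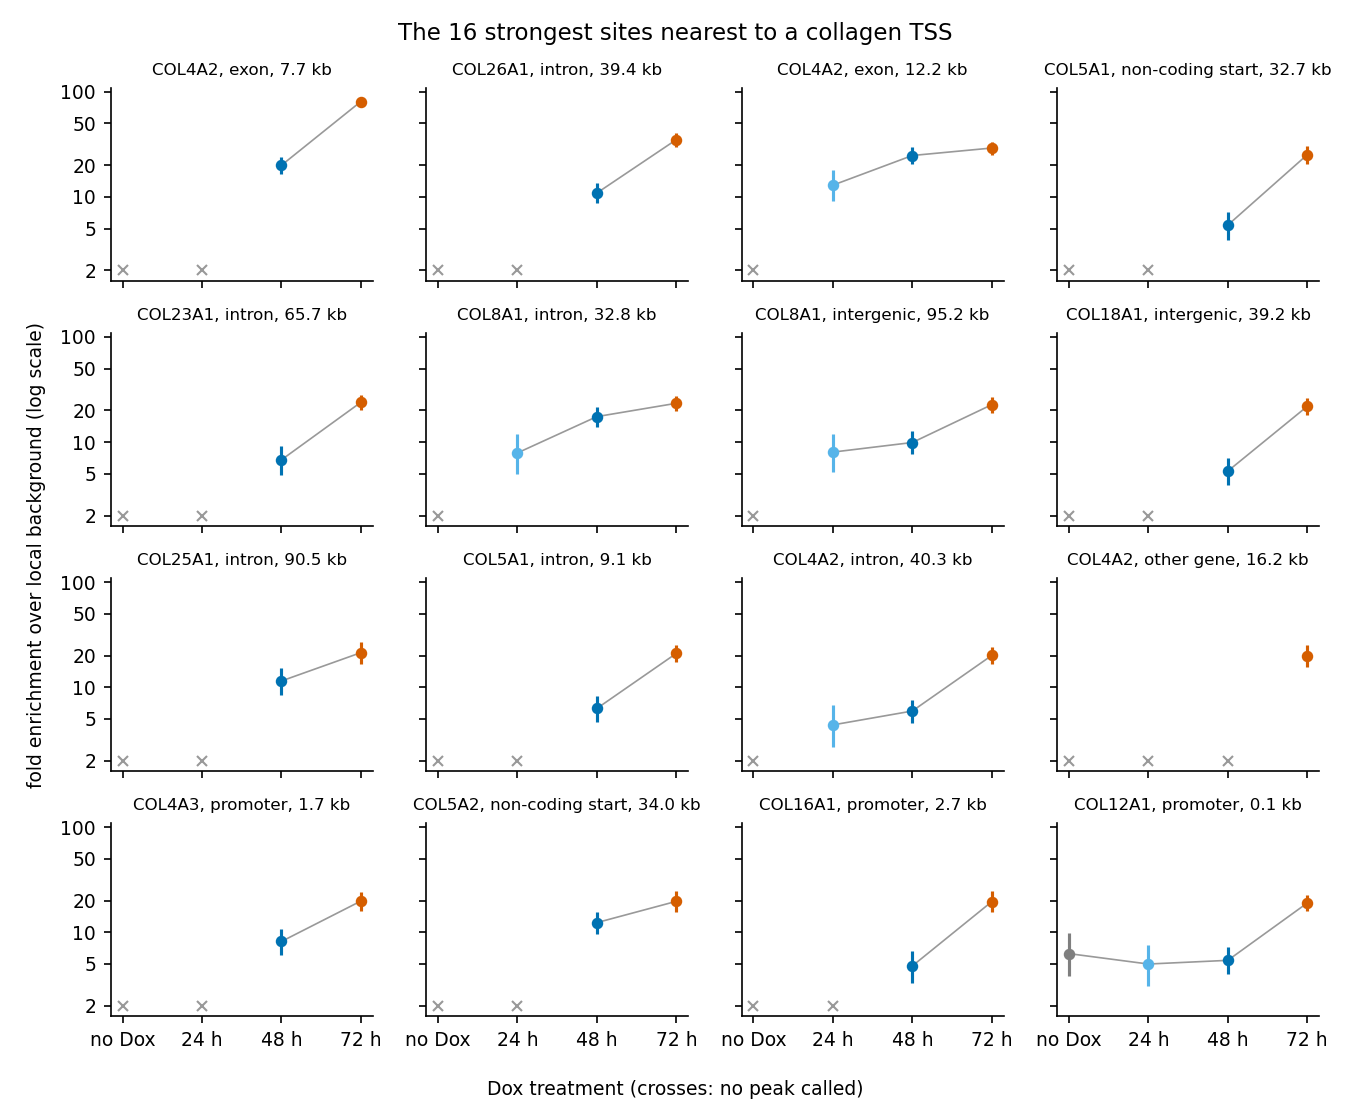
Fold enrichment (y axis, log scale) in each list (x axis) of the 16 strongest sites whose nearest protein-coding start belongs to a collagen gene, each panel naming the gene, the place of the summit and its distance to the nearest start in kb. Points are the strongest peak of each list in a site (the intergenic COL8A1 site joins separate peaks of 9.90 and 8.46 at 48 h), bars are 95% Poisson intervals and crosses mark lists without a call; only the COL12A1 promoter was called without Dox, and the COL4A2 exon reaches 80.9 at 72 h.

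Overlapping peaks of the 4 lists were merged into 254 collagen sites, and the strongest peak of a list stands for its site. Of these, 180 (70.9%) were called at 72 h alone, against 66.5% of all sites of the genome, and 52 (20.5%) at 48 and 72 h, against 21.3%. At 24, 48 and 72 h but not without Dox 10 sites (3.94%) were called, against 4.52%. Both without Dox and at 72 h 8 of the 254 collagen sites were called, against 2142 of the 39430 sites of the genome. Of these 8, 1 was called in all 4 lists (0.394% of collagen sites), against 1.103% of all sites of the genome. At the 64 sites called at both 72 and 48 h, the fold enrichment at 72 h was a median of 2.18 times that at 48 h, with a range of 0.547 to 7.59. It was higher at 72 h at 59 of the 64 sites, with intervals apart at 43, and lower with intervals apart at 1. The median ratio over all sites of the genome was 1.88.

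The 1 site that was lower at 72 h with intervals apart was the intergenic site 9258 bp upstream of COL9A1, a FACIT gene. It had a fold enrichment of 9.97 at 72 h (7.73 to 12.7), against 18.2 at 48 h (14.2 to 22.98). At the 8 sites called both at 72 h and without Dox the ratio of 72 h over no Dox had a median of 1.23. Over the 2142 such sites of the genome the median ratio was 1.84. Of the 8 collagen sites 5 were higher at 72 h. The 2 that were lower with intervals apart were the promoters of MRPL13 and ZMPSTE24.

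A TEAD consensus lay within 100 bp of the summit at 6 of 12 collagen window peaks at 24 h (50%, 21.1 to 78.9%), against 52.2% of all peaks of the list. At 48 h the share was 49.3% (36.8 to 61.8%), against 41.8%, and at 72 h it was 29.5% (23.9 to 35.5%), against 27.7%. An AP-1 consensus was present at 16.7%, 25.4% and 18.3% of collagen window peaks at 24, 48 and 72 h, against 17.3%, 19.9% and 16.04% of all peaks. The interval of each of these collagen shares included the share of all peaks. For the RUNX consensus it did so at 24 and 48 h. At 72 h the collagen share was 10.4% (6.88 to 14.8%), against 6.86% of all peaks, and 14.8% (9.39 to 21.7%), against 8.96%, among peaks not at a promoter. Both lower limits lie just above the share of all peaks. Several shares were compared, neighbouring peaks are not independent, and enrichment was not tested. At the 22 collagen promoter peaks of the 72 h list, 8 had a TEAD consensus (36.4%, 17.2 to 59.3%) and 6 an AP-1 consensus (27.3%, 10.7 to 50.2%). The shares over promoter peaks of all genes were not computed. Among all peaks not at a promoter the shares were 35.1% and 20.8%, above those of all peaks, so promoter peaks of all genes had lower shares than all peaks. The shares of all peaks are therefore no background for these 22.

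The TEAD letters in collagen exons were mostly not at a peak. The canonical exons of collagen genes hold 83 TEAD consensus sequences (0.310 per kb), against 0.261 per kb in canonical exons of all protein-coding genes. Of the 83, 1 had a summit of the 72 h list within 100 bp (1.205%), which is the COL4A2 exon 34 site, against 1.82% for all protein-coding genes. In the rest of the collagen gene bodies 34 of 1738 had one (1.96%), against 1.88% for all protein-coding genes.

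The proteins that modify, fold, export, process, crosslink, cleave and bind collagen were taken as a list of 50 genes for comparison, which was drawn up from general knowledge. A promoter peak was called at 4 of the 50 without Dox and at 0, 8 and 29 (58%) after 24, 48 and 72 h, beside the backgrounds of 9.4%, 2.55%, 9.09% and 58.4% given above. All 5 crosslinking genes had a promoter peak at 72 h. LOXL4, a lysyl oxidase that starts the crosslinks, had a fold enrichment of 36.4 at 72 h (31.5 to 41.8), against 8.83 at 48 h (6.66 to 11.5), and LOX had 12.9 at 72 h alone. Of the 19 genes of modification and folding in the endoplasmic reticulum 14 had a promoter peak at 72 h (P3H4 and FKBP10 share 1), among them P3H2, a prolyl 3-hydroxylase, at 13.6, and SERPINH1, the collagen chaperone HSP47, at 13.4. BMP1, which removes the C-propeptide of fibrillar procollagens, had 21.3 at 72 h (17.4 to 25.8), against 10.4 at 48 h (7.62 to 13.97).

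The receptors and the collagen-cleaving proteases had calls at 3 of 9 and 1 of 7 genes at 72 h, where 58.4% of all protein-coding genes did. Copies on alternate sequences of the reference were examined for collagen genes only, so their part in the missing calls here is not known. ITGB1, the β1 chain shared by the collagen-binding integrins among these receptors, had 4.37 (2.81 to 6.52) without Dox, 4.78 (3.32 to 6.69) after 48 h and 27.97 (23.2 to 33.5) after 72 h, and was not called at 24 h. ITGA1, the α1 chain that pairs with it, had 11.6 at 72 h (9.19 to 14.5), against 24.5 at 48 h (20.0 to 29.6), the opposite order. MMP14, a membrane-bound collagenase, was the only 1 of the 7 collagen-cleaving proteases called, at 5.45 at 72 h.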

How the data were processed

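Groups came from the sample titles, and the labels tie 1 peak list to both libraries (TAZ and IgG) of a condition. According to the study's methods, BWA aligned the quality-trimmed reads to hg38, and MACS2 called the peaks of each condition with the false discovery rate set to 0.01. The versions and any use of IgG as control were not given in the sources used here. The authors' lists hold the fold enrichment of each summit, a ratio to the local background, and the deposited −log10 p-values and −log10 q-values.

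From these, pileup and background were solved for each peak, and 100% of the deposited p-values were returned within 0.003. Distances used GENCODE version 44 with 1-based coordinates. Overlap meant at least 1 bp. The extraction and the motif search were tested on simulated data. Collagen genes and handling genes were chosen with earlier results of these data known. The naming rule allowed every collagen gene, the 10 strongest distal peaks at 72 h and the 5 strongest of each other list, and the 5 handling genes with the highest promoter values at 72 h; other names are neighbours or were chosen after their values were seen. The lists hold 0 columns of another series. Alternatives were another promoter or window width, coding starts alone, a stricter q, thinning to 1 depth and another overlap. Python 3.11.15, numpy 2.4.6, scipy 1.17.1 and pysam 0.24.0 were used.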

Additional observations from a re-analysis of the deposited data

How the results depend on the processing

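With 1 library per condition nothing could be left out, and no paired analysis was possible because no result comes from a test and each group has 1 library. The counts of genes and peaks moved most when peaks were counted in the gene body alone or by the nearest start. Each of these changed 7 counts beyond a ratio of 1.5, against 2 counts with a window of 50 kb. Counted in the gene body alone, 2 peaks of 2 genes were left without Dox, 5 peaks of 4 genes at 24 h, 27 peaks of 18 genes at 48 h and 79 peaks at 72 h. Counted where a collagen start is the nearest, these were 3 peaks of 3 genes without Dox, 7 of 4 at 24 h, 38 of 21 at 48 h and 117 peaks at 72 h. A window of 50 kb held 42 peaks at 48 h and 154 at 72 h. At a −log10 q of at least 5, 6 peaks of 6 genes were left without Dox. With starts of coding transcripts alone, 1 promoter gene was left at 24 h and 2 at 48 h, and with all lists thinned to the lowest background and 1 p threshold, 3 were left at 48 h. The promoter count at 72 h ran from 12 to 17 over these alternatives. Where peaks had to share 50% of the length of both, 41.7% of the 24 h peaks were in the 48 h list and 0% in the 72 h list, and 59.7% of the 48 h peaks were in the 72 h list. The median peak width was 408 bp at 24 h and 821 bp at 72 h.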
